A study of Mus musculus with 12 samples.

Results

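The small RNAs described here came down with the anti-FLAG M2 antibody from mouse embryonic stem cells in which the tagged AGO2 had not been induced. They are the background of the experiment, and the question was what they are and how the nuclear background differs from that of the total fraction. The members are the miRNA entries with a mean count of 10 or more in at least 1 of the columns nuclear noDox and total noDox, which are 189 of the 689 entries in the table. At the margin of this rule, miR-18a, miR-183 and miR-93* had exactly 10 mean reads in their higher column, while miR-1187 had 9.88 and miR-674 and miR-1906 had 9.67 and were left out.

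All cells carried a doxycycline-inducible transgene for HA-Flag-AGO2. They were grown on gelatin with leukemia inhibitory factor and taken at passages 8 to 15. Nuclear noDox and total noDox are the nuclear and the total fraction of cells that received no doxycycline. Nuclear Dox and total Dox, given beside them for comparison, are the same fractions 15 h after doxycycline at 2.5 ug/ml. Each group had 3 libraries, and the labels do not say whether these came from separate cultures or clones. The fraction called total in the labels is called cytoplasmic in the protocol, so whether it held nuclei was not settled. The table gives 1 mean per group, so no difference below has a replicate check or a test, and intervals are 95% intervals for counting error only.

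A miRNA is cut as a short duplex from a hairpin, first by Drosha in the nucleus and then by Dicer in the cytoplasm. An Argonaute protein normally keeps 1 strand of that duplex, the guide, and the other strand is discarded and degraded. In the older names used by the table, a star marks the strand that is usually discarded. The guide finds its targets mainly through its seed, which is bases 2 to 8. In mouse embryonic stem cells the most abundant guides come from the miR-290-295 cluster, which supports rapid cycling and pluripotency.

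A RefSeq mature sequence (GRCm38.p6) could be matched to 146 of the 189 entries, 32 of them under the same name and 114 through the arm that the older name stands for. The first set shows arms of the miR-290-295 cluster, because they were abundant without doxycycline. miR-294, miR-295 and miR-291a-3p share a seed. The star strands miR-295* and miR-294* come from the hairpins of miR-295 and miR-294, while miR-293* and miR-292-5p share a second seed and come from hairpins of their own. Capitals mark the seed.
miR-294: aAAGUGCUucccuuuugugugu
miR-295: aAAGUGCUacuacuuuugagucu
miR-291a-3p: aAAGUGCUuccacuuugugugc
miR-295*: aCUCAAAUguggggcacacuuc
miR-294*: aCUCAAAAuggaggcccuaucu
miR-293*: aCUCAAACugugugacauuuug
miR-292-5p: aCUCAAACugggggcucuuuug
The next set shows the 3 entries with the highest fold of nuclear over total noDox among those with 10 or more mean reads in both columns.
miR-337-3p: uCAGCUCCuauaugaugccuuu
miR-878-3p: gCAUGACAccacacuggguaga
miR-677: uUCAGUGAugauuagcuucuga
The last set shows entries that stood below the total fraction. let-7a, let-7f and let-7g share a seed, and so do miR-30e* and miR-30a*.
let-7a: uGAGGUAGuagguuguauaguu
let-7f: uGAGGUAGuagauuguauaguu
let-7g: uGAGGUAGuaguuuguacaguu
miR-30e*: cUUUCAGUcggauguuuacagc
miR-30a*: cUUUCAGUcggauguuugcagc
miR-30e: uGUAAACAuccuugacuggaag
miR-434-5p: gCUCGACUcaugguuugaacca

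The background was shallow. Its miRNA counts summed to a mean of 36329.9 reads per library in nuclear noDox and 16053 in total noDox, against 400794 in nuclear Dox and 539627 in total Dox. An entry at 0 had no read in its group, which allows an expected level of up to 3 reads over the group, or 1 mean read. In nuclear noDox 649 entries were above 0 and 175 reached 10 mean reads. In total noDox 505 were above 0 and 139 reached 10. Of the 189 members, 125 reached 10 in both columns, 50 in nuclear noDox alone and 14 in total noDox alone. They held 96.2% of nuclear noDox reads and 96.4% of total noDox reads.

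Without doxycycline 1 entry, miR-805, outnumbered every other. It had 23134 mean reads in nuclear noDox and 5338 in total noDox, against 13121 in nuclear Dox and 4494 in total Dox. With miR-805 set aside, 13196 mean reads remained in nuclear noDox and 10715 in total noDox. The background reads were then spread over many more entries than the induced ones. The 10 most abundant entries held 37.5% in nuclear noDox and 46.2% in total noDox, against 69.7% in nuclear Dox and 70.2% in total Dox. It took 192 entries in nuclear noDox and 115 in total noDox to reach 90% of these reads, against 61 in nuclear Dox and 59 in total Dox.

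The stem cell cluster remained the main source of the other reads. The 14 arms of miR-290-295 summed to 5187 mean reads in nuclear noDox and 5160 in total noDox in libraries of unequal depth. Without miR-805 this was 39.3% of nuclear noDox reads and 48.2% of total noDox reads. Within the cluster the order was unlike that of the induced cells. miR-292-5p led with 990.5 mean reads in nuclear noDox and 1107 in total noDox. miR-294, which led both induced columns, followed with 719 in nuclear noDox and 544 in total noDox. miR-291a-3p had 545 and 565, and miR-295* had 462 and 473, in the same order of columns. The other stem cell cluster, miR-302 and miR-367, had no arm among the members, and its 8 entries summed to 22.5 mean reads in nuclear noDox. Of the 20 most abundant entries, 14 were shared between nuclear noDox and total noDox. Nuclear noDox shared 10 of its 20 with nuclear Dox, and total noDox shared 12 of its 20 with total Dox.

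**Figure D1:**
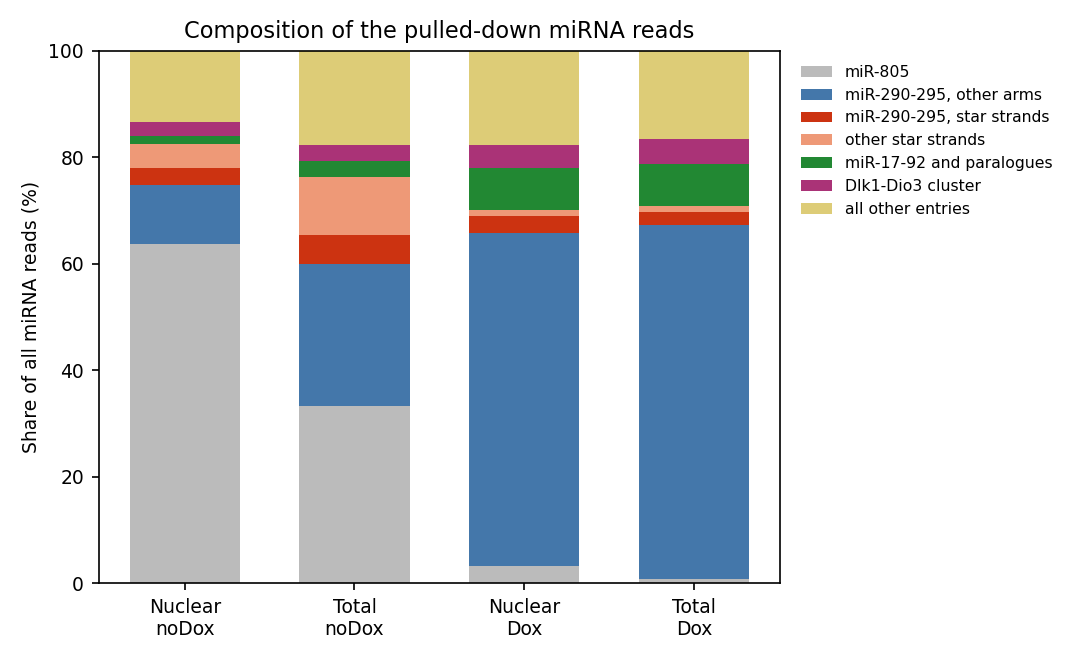
Share of all miRNA reads (%, vertical axis) taken by 7 classes that do not overlap, in nuclear noDox, total noDox, nuclear Dox and total Dox (authors' means of 3 libraries each). miR-805 takes 63.7% of nuclear noDox and 33.3% of total noDox, and star strands outside the miR-290-295 cluster take 4.48% and 11.0%, against 1.10% in nuclear Dox and 1.27% in total Dox.

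The background held a far larger share of star strands. Without miR-805, the 119 star entries took 21.1% (95% Wilson interval 20.7 to 21.5) of nuclear noDox reads and 24.7% (24.2 to 25.2) of total noDox reads, against 4.47% of nuclear Dox and 3.74% of total Dox. Outside the miR-290-295 cluster, and again without miR-805, star strands took 20.3% (19.8 to 20.8) in nuclear noDox and 31.7% (31.0 to 32.4) in total noDox, against 3.56% in nuclear Dox and 4.18% in total Dox. The difference between the background columns was thus larger outside the cluster than over all entries, with total noDox the higher.

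The share of the star strand within its own hairpin needs no scaling between libraries. It was computed for 45 hairpins whose strands together had at least 20 mean reads in each noDox column. The median star share was 52.4% in nuclear noDox and 47.4% in total noDox, against 3.47% in nuclear Dox and 5.26% in total Dox. The star strand outnumbered its partner in 23 hairpins in nuclear noDox and in 22 in total noDox, but in 1, miR-140, in each induced column. The star share was above that of the induced column, with Wilson intervals apart, in 41 of 45 hairpins (91.1%) of the nuclear fraction and likewise in 41 of 45 (91.1%) of the total fraction. A hairpin could reach 20 reads through its star strand alone. Among the 17 hairpins whose main strand by itself had 30 or more mean reads in both noDox columns, the medians were 41.7% in nuclear noDox and 42.1% in total noDox, against 2.38% in nuclear Dox and 3.61% in total Dox.

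miR-295* shows the size of this shift. The star strand had 462 mean reads beside 357 of its guide miR-295 in nuclear noDox, and 473 beside 447 in total noDox. In nuclear Dox it had 646 beside 31807, and in total Dox 1117 beside 52355. miR-21*, the partner of the widely expressed miR-21, had 136 mean reads beside 81.7 in nuclear noDox and 76.3 beside 66 in total noDox. In nuclear Dox it had 55.3 beside 2354, and in total Dox 72.7 beside 2623. miR-124*, from the hairpins of the neural miR-124, had 109.7 beside 35.3 in nuclear noDox and 76.7 beside 35 in total noDox. It had 34 beside 2848 in nuclear Dox and 100.3 beside 2683 in total Dox. In these hairpins the guide had far fewer reads without doxycycline than with it, whereas the star strand had more reads without doxycycline in nuclear noDox for miR-21* and miR-124* and fewer for miR-295*.

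Not every hairpin did this. The star share of miR-299, from the Dlk1-Dio3 cluster, was 11.8% in nuclear noDox and 10.7% in total noDox, below 41.4% in nuclear Dox and 33.5% in total Dox. That of miR-92a, of the miR-17-92 cluster, was 2.33% in nuclear noDox and 2.27% in total noDox, low although above the 0.589% in nuclear Dox and 0.634% in total Dox. miR-140* made up 62.1% in nuclear noDox and 56.7% in total noDox, as it did with 64.8% in nuclear Dox and 59.5% in total Dox. miR-145 and miR-872 had overlapping intervals with and without doxycycline.

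**Figure D2:**
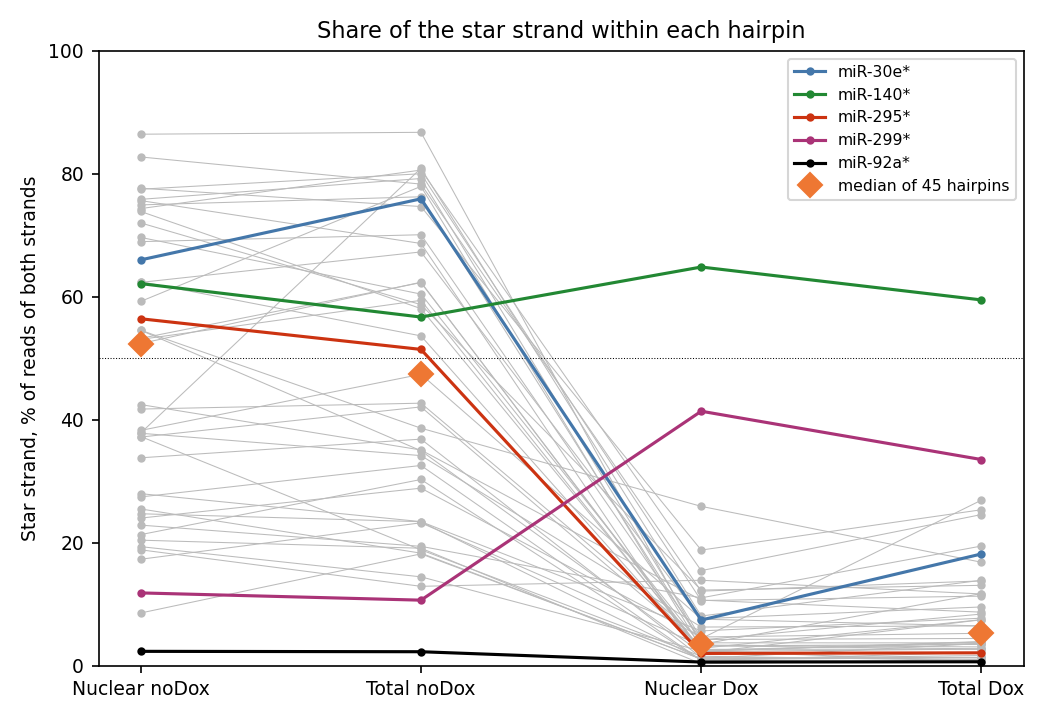
Reads of the star strand as a percentage of the reads of both strands of a hairpin (vertical axis), in nuclear noDox, total noDox, nuclear Dox and total Dox, with 1 line for each of 45 hairpins and the median as a diamond. The medians are 52.4%, 47.4%, 3.47% and 5.26% in that order, and miR-299* and miR-140* do not follow them.

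Between the fractions the star share differed in both directions. Nuclear noDox was above total noDox, with intervals apart, in 4 of 45 hairpins (8.89%), and below it in 4 of 45 (8.89%). Above were miR-293* at 54.5% (52.6 to 56.5) in nuclear noDox and 38.6% (36.5 to 40.8) in total noDox, miR-15a* at 54.5% and 34.95%, miR-21* at 62.5% and 53.6%, and miR-295* at 56.4% and 51.4%. Below were miR-27a* at 59.2% (54.1 to 64.3) in nuclear noDox and 77.9% (74.2 to 81.3) in total noDox, miR-322* at 37.8% and 80.9%, miR-30e* at 66.0% and 75.9%, and miR-148a* at 8.57% and 18.2%. In the stem cell cluster miR-293* and miR-295* thus took a larger share in nuclear noDox, while the share of miR-294* was 24.7% in nuclear noDox and 23.4% in total noDox, with overlapping intervals. Among hairpins named by arm, miR-337 stood out. Its 3p arm made up 97.3% (96.3 to 98.1) in nuclear noDox and 53.2% (42.2 to 64.0) in total noDox, against 44.5% in nuclear Dox and 24.0% in total Dox.

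For a comparison entry by entry, mean reads were scaled with TMM factors, which assume that most entries do not differ, and a fold of 2 was used as a rule of size. Of the 189 members, 45 (23.8%) exceeded this fold in favour of nuclear noDox, 32 (16.9%) in favour of total noDox, and 112 lay within it. The median log2 fold of nuclear noDox over total noDox was -0.09, with quartiles of -0.75 and 0.81. The counting intervals of these 77 entries did not include a log2 fold of 0. The level of an entry in either column comes from a pull-down of bulk cells. Such a level does not separate the number of cells with a miRNA from its amount per cell.

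The filter set part of this pattern. Of the 45 higher entries, 36 reached 10 reads only in nuclear noDox, and of the 32 lower ones 9 reached it only in total noDox. Among the 125 entries with 10 or more reads in both columns, 9 (7.2%) were higher and 23 (18.4%) lower. Scaling mattered as well. By library totals, which miR-805 dominates, 29 were higher and 76 lower, and without scaling 59 were higher and 15 lower. A scaling shifts all entries alike, so the entries past 2-fold in all 5 scalings are those of the strictest setting for each direction. These were 29 higher, as by library totals, and 15 lower, as without scaling. Of the 29, only miR-337-3p, miR-878-3p and miR-677 had 10 or more reads in both columns. Of the 15, miR-434-5p, let-7g, miR-467a, miR-467b and miR-186* reached 10 only in total noDox.

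miR-337-3p of the imprinted Dlk1-Dio3 cluster had the largest fold among entries with 10 or more mean reads in both columns. It had 379 mean reads in nuclear noDox and 13.7 in total noDox, a log2 fold of 4.37 (3.92 to 4.85). Its hairpin lies at chr12:109585789-109585885 on the plus strand of GRCm38, where GENCODE vM21 lists no other gene. The opposite arm miR-337-5p, cut from the same hairpin, had 10.3 mean reads in nuclear noDox and 12 in total noDox. The arms of 1 hairpin therefore differed in how they divided between the fractions.

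miR-677 had 322 mean reads in nuclear noDox and 52 in total noDox, a log2 fold of 2.20 (1.96 to 2.46). Its hairpin lies in an intron of Atp5b, which encodes the beta subunit of mitochondrial ATP synthase, at chr10:128085286-128085363, and GENCODE annotates the same stretch as a small nucleolar RNA (snoRNA). Most snoRNAs reside in the nucleolus, where they guide chemical modification of ribosomal RNA. miR-878-3p, at chrX:66801508-66801585 with no overlapping gene, had 72.7 mean reads in nuclear noDox and 10.7 in total noDox, at 2.34 (1.80 to 2.93). miR-714 had 111 and 9.33, at 3.15 (2.59 to 3.76), but reached the minimum only in nuclear noDox.

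The remaining entries with 10 or more reads in both columns and a nuclear excess were miR-805 at 1.69 (1.66 to 1.71), miR-1949 at 1.57 (1.36 to 1.80), miR-759 at 1.48 (1.03 to 1.95), miR-1940 at 1.40 (0.86 to 1.97), miR-136 at 1.20 (0.66 to 1.76) and miR-122 at 1.19 (0.97 to 1.41). The liver miRNA miR-122 had 228 mean reads in nuclear noDox and 74.3 in total noDox. For miR-805, miR-1949, miR-759, miR-1940, miR-136 and miR-122 the fold was under 2 by library totals, so their nuclear excess is relative to the typical entry. miR-715 had 23.7 mean reads in nuclear noDox and no read in total noDox. With the 0 set to 3 reads over the group its log2 fold was 4.14, and the counting interval of that value began at 3.80.

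Of 13 members numbered 1000 and above, 8 of the 10 that were higher in nuclear noDox, such as miR-1903 with 14.5 mean reads in nuclear noDox and 0.333 in total noDox, reached the minimum only in nuclear noDox, so the filter favoured that direction and the count shows nothing about late numbers. Of those at 10 or more in both columns, miR-1949 and miR-1940 were higher, miR-1983 was within 2-fold and miR-1965 was lower, with 88 mean reads in nuclear noDox and 216 in total noDox.

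**Figure D3:**
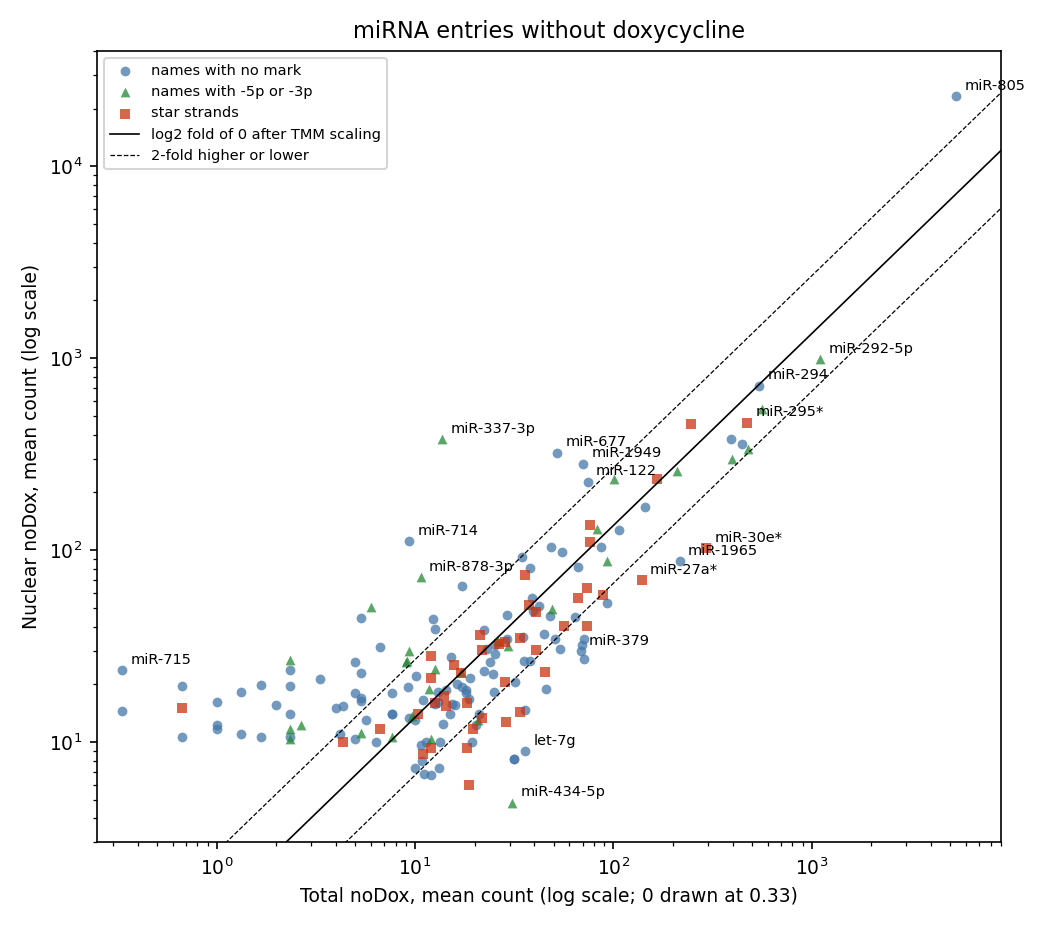
Mean count in nuclear noDox (vertical, log scale) against total noDox (horizontal, log scale) for 189 miRNA entries, 1 point each, by kind of name. miR-337-3p at 379 and 13.7 and miR-714 at 111 and 9.33 lie far above the line of equal scaled level, and miR-30e* at 103 and 293 and miR-434-5p at 4.83 and 31 lie below it.

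Of the 32 entries lower in the nuclear background, 11 were star strands. miR-434-5p of the Dlk1-Dio3 cluster was furthest below, with 4.83 mean reads in nuclear noDox and 31 in total noDox, a log2 fold of -3.11 (-4.08 to -2.34). It reached the minimum only in total noDox. miR-30e* had 103 mean reads in nuclear noDox and 293 in total noDox, at -1.93 (-2.13 to -1.75). Its hairpin and that of miR-30c-1* lie in introns of Nfyc, a subunit of the transcription factor NF-Y, at chr4:120772606-120772697 and chr4:120769534-120769622 on the minus strand. miR-30c-1* had 14.3 and 34 mean reads, at -1.67 (-2.22 to -1.14).

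The miR-30 family had 7 members, 5 of them lower and 0 higher, at a median of -1.23, where 16.9% of all members were lower. The 5 were miR-30e and the star strands miR-30e*, miR-30a*, miR-30c-1* and miR-30c-2*. miR-30e and miR-30e* come from 1 hairpin, so these entries are not independent. The family took 2.05% of nuclear noDox reads without miR-805 and 5.35% of total noDox reads, against 1.04% in nuclear Dox and 0.966% in total Dox. let-7 miRNAs build up during differentiation, and this family had 4 members, of which 3 were lower and 0 higher, with a median of -1.48, against the same 16.9%. let-7g had 8.94 mean reads in nuclear noDox and 35.9 in total noDox, let-7f had 14.7 and 35.8, and let-7a had 30.6 and 54.0. Of these, let-7g reached the minimum only in total noDox, so the filter favoured that direction for it. The fourth, let-7i, had 19.4 and 17.2. These 4 share a seed, and reads of near-identical let-7 members may have been divided between them.

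Other members below the total fraction had single values. miR-320, which is made without Drosha, had 27 mean reads in nuclear noDox and 71 in total noDox, at -1.82 (-2.21 to -1.45). miR-186 had 19 and 46, at -1.70 (-2.17 to -1.25), and its star strand miR-186* had 6 and 18.7. miR-379, the first hairpin of the large imprinted group in the Dlk1-Dio3 region, had 29.7 and 68.3, at -1.63 (-2.01 to -1.26). miR-130a and miR-130b, which share a seed, had 32 and 34.3 mean reads in nuclear noDox and 69.3 and 70.8 in total noDox. miR-467a and miR-467b of the Sfmbt2 cluster each had 8.17 and 31.7, and their equal values mean that these alike sequences cannot be told apart as separate miRNAs.

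Star strands as a group were seldom higher in nuclear noDox. Of 43 star members, 1 was higher and 11 were lower, or 2.33% and 25.6%, against 23.8% and 16.9% of all members. The 23.8% rests largely on entries that reached 10 only in nuclear noDox. Among the 125 entries at 10 or more in both columns, 7.2% were higher and 18.4% lower. The median log2 fold of the star members was -0.33, against -0.09 for all members and -0.25 for those 125 entries. Some of the 43 star members, such as miR-186* and miR-322*, reached 10 in 1 column only. Shares and the median of star strands at 10 or more in both columns were not computed. Of the 11 lower star strands, miR-30e*, miR-30a*, miR-30c-1* and miR-30c-2* belong to the miR-30 family. The 1 higher star strand was miR-300*, with 15 mean reads in nuclear noDox and 0.667 in total noDox. It reached the minimum only in nuclear noDox. miR-27a* was among the lower ones, with 70 and 139 mean reads at -1.42 (-1.66 to -1.17), while its guide miR-27a had 48.2 and 39.3. miR-101a* pointed the other way within 2-fold, with 74 and 36 mean reads at 0.61 (0.28 to 0.96), but stood at -0.14 by library totals.

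In miR-290-295, 13 of 14 arms were within 2-fold and 1, miR-291b-3p with 26.4 mean reads in nuclear noDox and 9.17 in total noDox, was higher. This arm reached the minimum only in nuclear noDox. The cluster median was -0.47, and its arms with most reads ran from miR-291a-5p at -0.93 (-1.05 to -0.81) to miR-293* at 0.45 (0.32 to 0.59). miR-294 was at -0.02 (-0.12 to 0.07). In the growth-promoting miR-17-92 cluster and its paralogues, 3 of 15 were lower, near the 16.9% of all members, and 0 higher, with a median of -0.55. The 3 were miR-17*, miR-20a* and miR-17, and the most abundant guides miR-92a and miR-19b were at -0.20 and -0.17. In the Dlk1-Dio3 cluster 8 of 29 were higher (27.6%) and 4 lower (13.8%), with a median of 0.05 and a range from -3.11 to 4.37, and these shares were near the 23.8% and 16.9% of all members. Of the 8, only miR-337-3p and miR-136 reached the minimum in both columns, and of the 4 only miR-379 and miR-409-3p. Under library totals each of these medians dropped by 0.75, and without scaling each was 0.43 higher, as for every entry.

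The smaller lists held few members each. In the miR-15/16 family 1 of 8 was higher, miR-322, and 2 were lower, with a median of -0.44. miR-322 reached the minimum only in nuclear noDox. The 6 members of the miR-200 family lay within 2-fold at a median of -0.06, as did the 3 of the miR-29 family at -0.09 and the 3 of the miR-183 cluster at -0.24. In the Sfmbt2 cluster 2 of 5 were lower, miR-467a and miR-467b, at a median of -0.07, and both reached the minimum only in total noDox.

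Markers of other cell types were present at low levels. Fibroblast and mesenchymal markers took 2.26% of nuclear noDox and 1.80% of total noDox reads without miR-805, with 1 of 5 members higher, miR-221, at a median of 0.07. Blood markers took 3.19% and 2.07%, mostly miR-142, whose 5p arm had 236 mean reads in nuclear noDox and 101 in total noDox. Neural markers took 1.33% and 1.15%, with miR-124 and miR-124* the only members. Muscle and liver markers took 2.09% and 0.877%, mostly miR-122, against 0.103% in nuclear Dox and 0.0788% in total Dox. The other marker lists also had lower shares in the induced columns. Blood markers took 0.928% of nuclear Dox and 0.779% of total Dox, fibroblast and mesenchymal markers 0.778% and 0.698%, and neural markers 0.848% and 0.619%. Of the 3 muscle and liver members, miR-122 and miR-1 were higher. Both miR-1, with 11.7 mean reads in nuclear noDox and 1 in total noDox, and miR-221 reached the minimum only in nuclear noDox. Whether RNA of other cells takes part in these values was not tested.

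**Figure D4:**
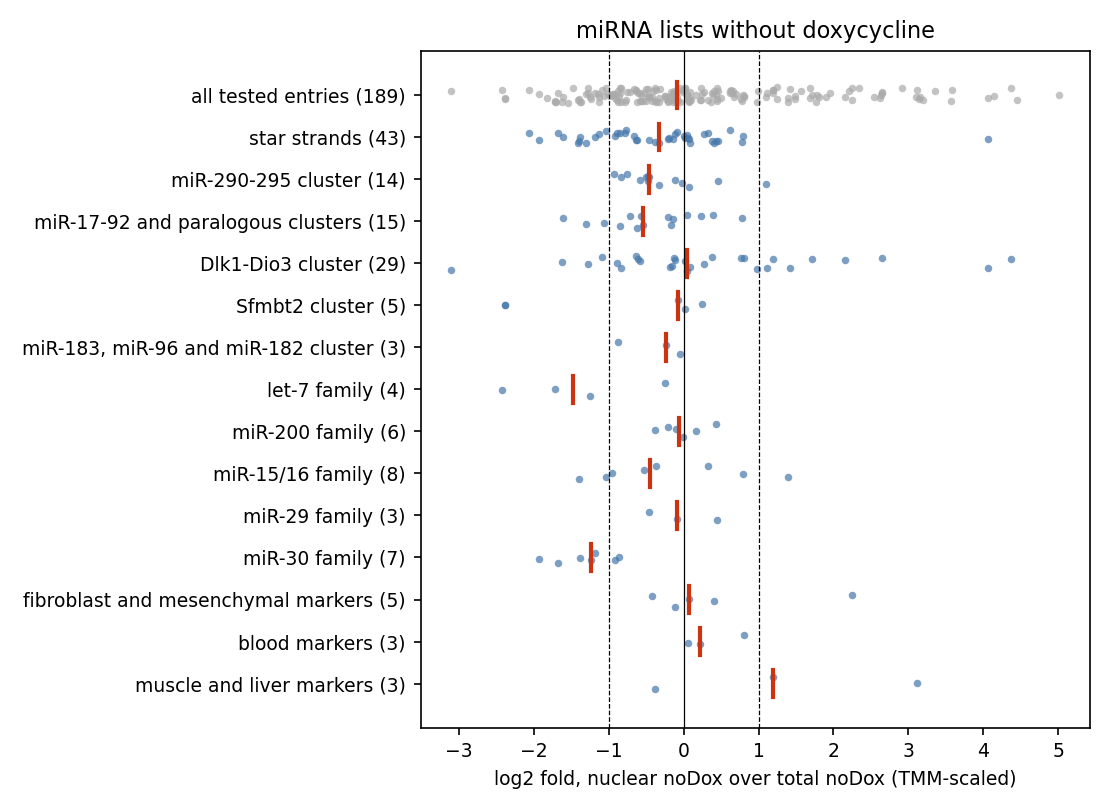
log2 fold of nuclear noDox over total noDox (horizontal axis, TMM-scaled) for members of each list of 3 or more, with the number of members in brackets, 1 point per entry and the median as a red bar. The medians of the let-7 family at -1.48 and the miR-30 family at -1.23 lie furthest below the -0.09 of all 189 entries among the lists drawn, and dashed lines mark 2-fold. The let-7 family includes let-7g, which reached the minimum only in total noDox.

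Some entries had at least as many reads without doxycycline as with it, although the induced libraries held many times more reads. This was so for 42 of 189 members (22.2%) in the nuclear fraction and for 20 of 189 (10.6%) in the total fraction, and all 20 were among the 42. The typical member had far fewer, with a median ratio of noDox over Dox reads of 0.103 for the nuclear and 0.0591 for the total fraction. The depth of the libraries and the effect of induction cannot be told apart in these ratios. Of the 42, 24 had names without a mark, 13 were star strands and 5 had an arm suffix.

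miR-122 had the highest nuclear ratio of the 42, with 228 mean reads in nuclear noDox against 41.2 in nuclear Dox, a ratio of 5.53, and with 74.3 in total noDox against 59 in total Dox. miR-200c*, the discarded strand of an epithelial miRNA, had 47.3 mean reads in nuclear noDox against 9.33 in nuclear Dox, and 40.7 in total noDox against 13.3 in total Dox. Its guide miR-200c had 15.8 mean reads in nuclear noDox against 242 in nuclear Dox. miR-21*, miR-193*, miR-30b*, miR-29b* and miR-322* likewise had at least as many reads without doxycycline in both fractions. miR-337-3p did so in the nuclear fraction only, with 379 in nuclear noDox against 157 in nuclear Dox, and 13.7 in total noDox against 109 in total Dox. miR-290-3p had 260 mean reads in nuclear noDox against 195.5 in nuclear Dox, and 209 in total noDox against 239 in total Dox. In the other 13 cluster arms the induced reads exceeded the background reads in both fractions.

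The mature sequences differed in their first base between background and induced reads. AGO2 is known to favour guides that begin with U or A. Among the 146 matched entries, sequences beginning with C took 14.2% of nuclear noDox and 18.9% of total noDox reads, against 6.66% of nuclear Dox and 7.28% of total Dox. Sequences beginning with U took 26.8% and 19.9%, against 16.9% and 15.9%, and those beginning with A took 54.8% and 57.8%, against 74.9% and 75.6%, in the same order of columns. Of the 36 matched star strands, 15 began with C and 4 with U, whereas of the 86 matched entries without a mark 13 began with C and 47 with U. These are annotated sequences, not the reads themselves. Arms of the miR-290-295 cluster weigh heavily in the shares. miR-294, miR-291a-3p and miR-295, which begin with A, took 17.2% of nuclear noDox and 18.6% of total noDox. They took 43.6% of nuclear Dox and 45.2% of total Dox. Shares without the cluster were not computed, so the U and C shares cannot be read apart from it. Whether the preference of AGO2 shaped these shares was not tested.

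Seeds tell the same families apart. The seed AAGUGCU of miR-294, miR-291a-3p and miR-295 took 17.2% of matched nuclear noDox reads and 18.6% of total noDox reads, against 43.6% in nuclear Dox and 45.2% in total Dox. The seed CUCAAAC of miR-292-5p, miR-293* and miR-290-5p took 16.2% and 17.3%, against 18.1% and 15.6%. The let-7 seed GAGGUAG took 0.779% in nuclear noDox and 1.71% in total noDox, against 0.0936% in nuclear Dox and 0.123% in total Dox. GC content did not separate the fractions, with a median of 45.5% both for 29 matched entries higher in nuclear noDox and for 25 lower ones, and a Spearman's rho of 0.04 with the log2 fold across 146 entries, many of which share a hairpin.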

How the data were processed

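Small RNAs bound by the anti-FLAG M2 antibody were extracted with Trizol and made into libraries by adapter ligation, with a barcode in the 3′ adapter, and PCR, per the labels' protocols. The submitters' processing notes name bcl2fastq 2.17.1, TopHat and mm10. For the miRNA annotation and for reads with several matches, the handling is not given in the sources used here. The authors deposited 1 table of expected counts, the mean of 3 libraries per group. In nuclear noDox 80.6% and in total noDox 91.4% of values were whole after multiplication by 3 (tolerance 1e-06), so reads were taken as 3 times the mean.

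Counts were scaled by column sum and TMM factor (edgeR 4.0.16, R 4.3.3), computed over the 189 members. Planned tests over libraries could not be run on means, so a fold of 2 served as rule of size. Intervals are 95% Clopper-Pearson for ratios and Wilson for shares. Reads carry no molecular identifiers, so intervals cover counting error only. A 0 was set to 3 reads over the group in a bound. The calculation was tested on simulated data in which miR-805 was set to the median level of the entries. That test therefore does not cover the weight of miR-805 in these data. Members and lists were chosen with earlier results of these data known. Entries were named by rule: the 10 most abundant of each noDox column, up to 8 with the highest and 8 with the lowest fold of those more abundant than the median, the 2 most abundant of each list, the 8 most abundant star strands, and the 6 with most reads among those at or above Dox in each fraction. Others, such as miR-434-5p, miR-715, miR-1903 and the hairpins outside the general pattern, were chosen after their values were seen. Alternatives were other scalings, minimum counts of 5 and 30, no filter and a pseudocount of 0.5. Other software was SciPy 1.17.1, pandas 2.3.3, matplotlib 3.10.9 and numpy 2.4.6 under Python 3.11.15.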

Additional observations from a re-analysis of the deposited data

How the results depend on the processing

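A scaling shifts all entries alike, and a minimum count changes no fold. These alternatives therefore bear mainly on how many entries pass 2-fold. No entry past 2-fold in the main setting could be reversed by another scaling. The largest shift in log2 fold was -0.75, by library totals, which is smaller than 2-fold. Entries nearer 0 could change sign. Under library totals miR-293* went from a log2 fold of 0.45 to -0.30 and miR-101a* from 0.61 to -0.14. Without scaling miR-294 went from -0.02 to 0.40. By library totals 29 entries were higher and 76 lower in nuclear noDox, with a median log2 fold of -0.84. Without scaling 59 were higher and 15 lower, with a median of 0.34. Library totals without miR-805 gave 47 higher and 28 lower, with a median of 0.0366. Median-of-ratios factors gave 47 and 28, with a median of 0.01. A minimum of 5 gave 91 higher and 34 lower of 289, with a median of 0.10, and a minimum of 30 gave 13 and 20 of 87, with a median of -0.20. Without a filter 197 were higher and 98 lower of 658, with a median of 0.31. A minimum of 10 in both columns, chosen after seeing the data, gave 9 and 23 of 125, with a median of -0.25. With the main strand at 30 or more, also chosen after seeing the data, the median star share was 41.7% in nuclear noDox and 42.1% in total noDox. No paired analysis was possible because the table gives 1 mean per group, and leaving out single libraries was not run for the same reason. Depth limits the rarer entries, since 10 mean reads are few.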
